A study of Mus musculus with 6 samples.

Results

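The genes described here encode writers and readers of N6-methyladenosine (m6A), a methyl mark on adenosines inside RNA. They are Mettl3, Mettl14, Wtap and Rbm15 on the writer side and Ythdf1 and Ythdf2 on the reader side. They were chosen by name among the genes annotated on the minus strand, and they are 6 of the 38483 genes in the count files. Levels were measured by RNA-seq in mouse embryonic fibroblasts (MEFs) of strain CD1, in 3 WT cultures and 3 cultures that are haploinsufficient for Nipbl (Nipbl+/-). MEFs are cells grown out of minced embryos, here mid-gestation littermates of 1 pregnant mouse whose limbs, brain and internal organs had been taken out, and RNA was drawn at the third passage. The Nipbl+/- cells carry 1 knocked-out copy of the gene for a protein that loads cohesin onto chromosomes, and they serve as a model of Cornelia de Lange syndrome. The study asked whether loss of Nipbl function lowers the genes that process and modify RNA. It did so in a human lymphoblastoid line with a NIPBL missense mutation and in mouse embryonic stem cells with Nipbl knockdown. In that lymphoblastoid line it reported lower METTL3 and METTL14, as RNA and as protein. From the fibroblasts it reported higher immune stress genes. The comparison below covers only the RNA of the m6A genes in these fibroblasts, and so does not repeat the study's test in the other cells.

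m6A is placed on RNA in the nucleus by a complex built around METTL3 and METTL14. METTL3 holds the catalytic site, METTL14 pairs with it and helps to hold the RNA, and WTAP anchors the pair to further subunits. RBM15 is an RNA-binding adaptor that guides the complex to some of its targets, among them the Xist RNA. In the cytoplasm the mark is bound by proteins with a YTH domain, of which YTHDF2 is best known for speeding the decay of methylated mRNA and YTHDF1 has been linked to its translation. The demethylases FTO and ALKBH5 can take the mark off again.

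The core subunits descend from the same enzyme family, and the codons of their catalytic motif show where they part. The stretches below were read from the GENCODE M21 transcripts (GRCm38), with the 4 codons of the motif in capitals. They are shown because the ratio of both subunits is one of the values compared further on.
Mettl3: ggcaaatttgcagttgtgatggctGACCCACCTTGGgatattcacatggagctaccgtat
Mettl14: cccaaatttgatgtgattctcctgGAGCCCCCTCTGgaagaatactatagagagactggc
The Mettl3 stretch lies on the minus strand at chr14:52297557-52297616, in exon 6 of 11, and its motif begins at codon 395 of 580. The Mettl14 stretch lies on the minus strand at chr3:123374781-123374840, in exon 7 of 11, and its motif begins at codon 192 of 456. METTL14 carries a changed form of the motif and is regarded as inactive by itself.

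YTHDF1 and YTHDF2 are close relatives, so the transcripts were also searched for stretches that could make their reads hard to tell apart. The longest run of bases found in protein-coding transcripts of both genes was 22 bases, in exon 4 of each and inside the coding sequence. It is shown in capitals because it bounds how far a read can match both genes without a mismatch.
Shared run: ATTGCTAGCAAGCCTGCAAAAC
It lies at chr2:180911610-180911631 in Ythdf1 and at chr4:132205103-132205124 in Ythdf2. With Ythdf3, the third member of the family, the longest shared run was 17 bases for either gene. Mettl3 and Mettl14 shared at most 12 bases, and Rbm15 and Rbm15b 16.

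The depth was similar in all cultures, with totals between 20307454 and 25990783 counts. All 19214 genes of the plus strand are listed at 0, so the data come from the 19269 genes of the minus strand. Of these, 13482 had a count in any culture and 9061 had enough counts for the test. Nipbl, the gene targeted in the mutants, had 128, 145 and 135 CPM (counts scaled to a common library size after TMM normalization) in WT replicates 1, 2 and 3 and 100.7, 101 and 100.3 CPM in the Nipbl+/- replicates. Every Nipbl+/- culture was below every WT culture, and the log2 fold change was -0.43 (SE 0.06, 95% interval -0.56 to -0.30, edgeR adjusted p = 0.0213, from the quasi-likelihood test used throughout). The edgeR adjusted p for Nipbl was 0.0755 without WT replicate 1, 0.0864 without Nipbl+/- replicate 1 and 0.0772 without Nipbl+/- replicate 2, with log2 fold changes of -0.47, -0.43 and -0.44. Most fibroblast markers, 12 of 14, lie on the plus strand, and the identity of the cells rests here on Prrx1 and Fap. Prrx1 was lower in Nipbl+/- cultures (log2 fold change -0.30, edgeR adjusted p = 0.0661) and Fap higher (0.64, edgeR adjusted p = 0.181). Neither passed the adjusted threshold. The genotypes did not overlap for either, as held for 12% of all tested genes in the higher direction. The share in the lower direction was not counted. The 8 macrophage markers that could be tested were all higher in Nipbl+/- cultures at an unadjusted p under 0.05, beside 8.98% of all tested genes in that direction, none at an adjusted p under 0.05, and their summed level was 55.3 to 72.5 CPM in WT and 92.5 to 179.9 CPM in Nipbl+/- cultures. The smallest p-values among them were those of the complement genes C1qb (log2 fold change 1.37), C1qc (1.13) and C1qa (1.09). The one epithelial marker tested, Krt8, had 0.363, 0.445 and 0.325 CPM in WT and 0.586, 0.650 and 2.01 CPM in Nipbl+/- cultures (log2 fold change 1.48, unadjusted p = 0.0265, edgeR adjusted p = 0.227). The part of these markers in the results below was not tested.

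All 6 genes were measured in every culture and all passed the filter on low counts. None of them was called different between genotypes at an adjusted p under 0.05, where 1.95% of all tested genes were, and none had an unadjusted p under 0.05, where 16.9% of tested genes did. All 6 log2 fold changes were above 0, as were 48.4% of those of all tested genes. They lay between 0.01 for Ythdf1 and 0.17 for Mettl14, with a median of 0.07 beside -0.0057 over all tested genes. In bulk RNA, the share of cells that express a gene and its RNA level per cell cannot be told apart.

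**Figure D1:**
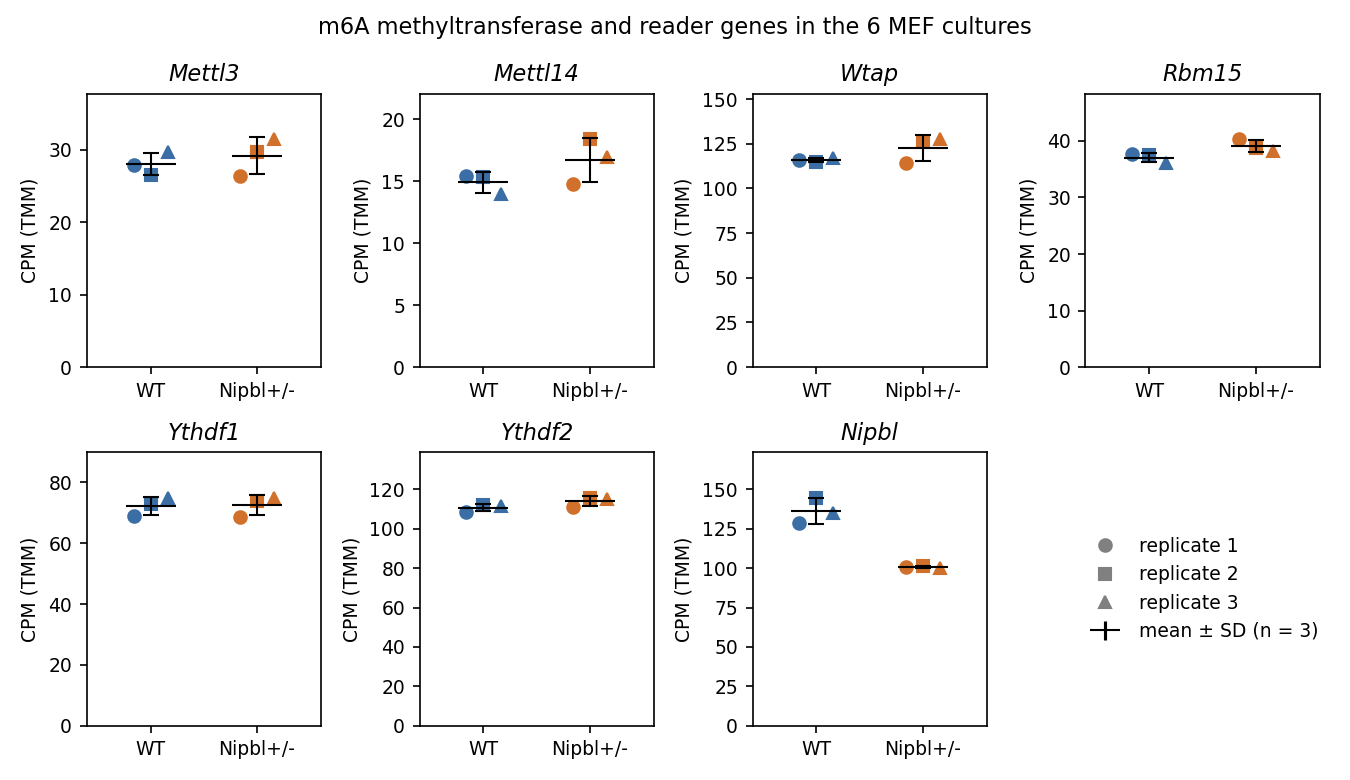
Level of each gene in CPM (TMM-scaled, y axis from 0) in 3 WT cultures (blue) and 3 Nipbl+/- cultures (orange), with the mean and SD of each genotype in black and one symbol for each replicate number. Nipbl+/- cultures overlap the WT cultures for every gene except Rbm15 and Nipbl, and only for Nipbl do they lie below.

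Mettl3, the catalytic subunit, is listed as ENSMUSG00000022160 on chromosome 14 from 52294668 to 52305128 (mm10). It had 27.9, 26.6 and 29.6 CPM in WT replicates 1, 2 and 3 and 26.4, 29.7 and 31.5 CPM in Nipbl+/- replicates 1, 2 and 3. Both the lowest and the highest of the 6 values belonged to Nipbl+/- cultures, so the WT range lay inside the mutant range. The means were 28.1 ± 1.54 CPM in WT and 29.2 ± 2.55 CPM in Nipbl+/- (SD, n = 3 each). The log2 fold change was 0.06 (SE 0.08, edgeR adjusted p = 0.780), and its 95% interval ran from a decrease of 8.83% to an increase of 18.7%. The gene shares 1724 bases with Tox4 on the opposite strand, and the labels do not say that strand was marked in the libraries, so reads of that stretch cannot be assigned with certainty. Single cultures set the size of the difference, which was 0.00011 on the log2 scale without Nipbl+/- replicate 3, 0.019 without WT replicate 2, 0.098 without WT replicate 3 and 0.12 without Nipbl+/- replicate 1.

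Mettl14, its partner, is listed as ENSMUSG00000028114 on chromosome 3 from 123364645 to 123385990. Its values were 15.4, 15.3 and 13.9 CPM in the WT replicates and 14.8, 18.4 and 16.9 CPM in the Nipbl+/- replicates. Nipbl+/- replicates 2 and 3 were above all WT cultures, while replicate 1 fell within the WT range. The means were 14.9 ± 0.838 and 16.7 ± 1.80 CPM (SD, n = 3 each), which gave the widest difference of the 6 genes, a log2 fold change of 0.17 (SE 0.10, edgeR adjusted p = 0.463). The interval allowed anything from a decrease of 4.76% to an increase of 32.2%. Without Nipbl+/- replicate 1 the log2 fold change was 0.24, with an unadjusted p of 0.045 and an edgeR adjusted p of 0.330. In that fit 1341 of 9226 tested genes had an unadjusted p under 0.05. No other fit gave any of the 6 genes an unadjusted p under 0.05. Mettl14 was also the least counted gene, with 300 to 481 reads per culture, and counting error alone came to 5.77% at the lowest count. It overlaps Sec24d on the opposite strand over 991 bases.

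Wtap, the subunit that anchors the pair, is listed as ENSMUSG00000060475 on chromosome 17 from 12966796 to 12992546. The WT cultures were close together at 116, 115 and 117 CPM, and the Nipbl+/- cultures stood at 114, 126 and 128 CPM. Nipbl+/- replicates 2 and 3 were again above the WT range, and replicate 1 was just under it. The means were 116 ± 1.17 and 123 ± 7.28 CPM (SD, n = 3 each), and the log2 fold change was 0.08 (SE 0.06, edgeR adjusted p = 0.537). The spread between mutant cultures was thus 5.93% of their mean. The WT spread was 1.01% of the mean, below the 1.99% that counting error alone gives at the lowest count of Wtap. A difference in spread between genotypes was not tested.

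Rbm15, the RNA-binding adaptor, is listed as ENSMUSG00000048109 on chromosome 3 from 107326110 to 107333289. It had 37.6, 37.5 and 36.1 CPM in WT and 40.3, 38.7 and 38.2 CPM in Nipbl+/- cultures. It was the only one of the 6 genes whose genotypes did not overlap, with all Nipbl+/- cultures above all WT cultures, as held for 12% of tested genes in that direction. The gap was small, from 37.1 ± 0.875 to 39.1 ± 1.11 CPM (SD, n = 3 each), a log2 fold change of 0.08 (SE 0.06, edgeR adjusted p = 0.548). An exact two-sided permutation test gave p = 0.1, the value of any gene without overlap between 3 and 3 cultures, so it adds nothing to the separation. Counting error alone came to 3.59% at the lowest count of Rbm15. Here replicate 1 was the highest of the Nipbl+/- cultures, whereas it was the lowest of them for the other 5 genes.

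Ythdf1, the reader linked to translation, is listed as ENSMUSG00000038848 on chromosome 2 from 180904377 to 180920949. Its levels were 69.0, 72.9 and 75.0 CPM in WT and 68.6, 74.0 and 75.0 CPM in Nipbl+/- cultures. The groups covered almost the same range, with means of 72.3 ± 3.03 and 72.5 ± 3.41 CPM (SD, n = 3 each). The log2 fold change was 0.0052 (SE 0.05, edgeR adjusted p = 0.977), and 97.2% of tested genes had a larger one in absolute value. Its sign turned in 4 of 15 alternative fits, so no direction can be given.

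Ythdf2, the reader linked to decay, is listed as ENSMUSG00000040025 on chromosome 4 from 132184912 to 132212303. It had 109, 112 and 111 CPM in WT and 111, 116 and 115 CPM in Nipbl+/- cultures. Nipbl+/- replicates 2 and 3 were above the WT range and replicate 1 was inside it. The means were 111 ± 1.78 and 114 ± 2.59 CPM (SD, n = 3 each), and the log2 fold change was 0.04 (SE 0.05, edgeR adjusted p = 0.708). Ythdf2 varied least across all cultures, with its highest culture 1.07 times its lowest.

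The precision of these comparisons can be read from the intervals. The lower bound of the 95% interval was -0.13 for Mettl3, -0.12 for Ythdf1, -0.07 for Mettl14, -0.07 for Ythdf2 and -0.05 for both Wtap and Rbm15, on the log2 scale. For each of the 6 genes a decrease as large as that of Nipbl, -0.43, therefore lay outside the interval. Increases were less tightly bounded, up to 0.40 for Mettl14 and 0.25 for Mettl3.

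**Figure D2:**
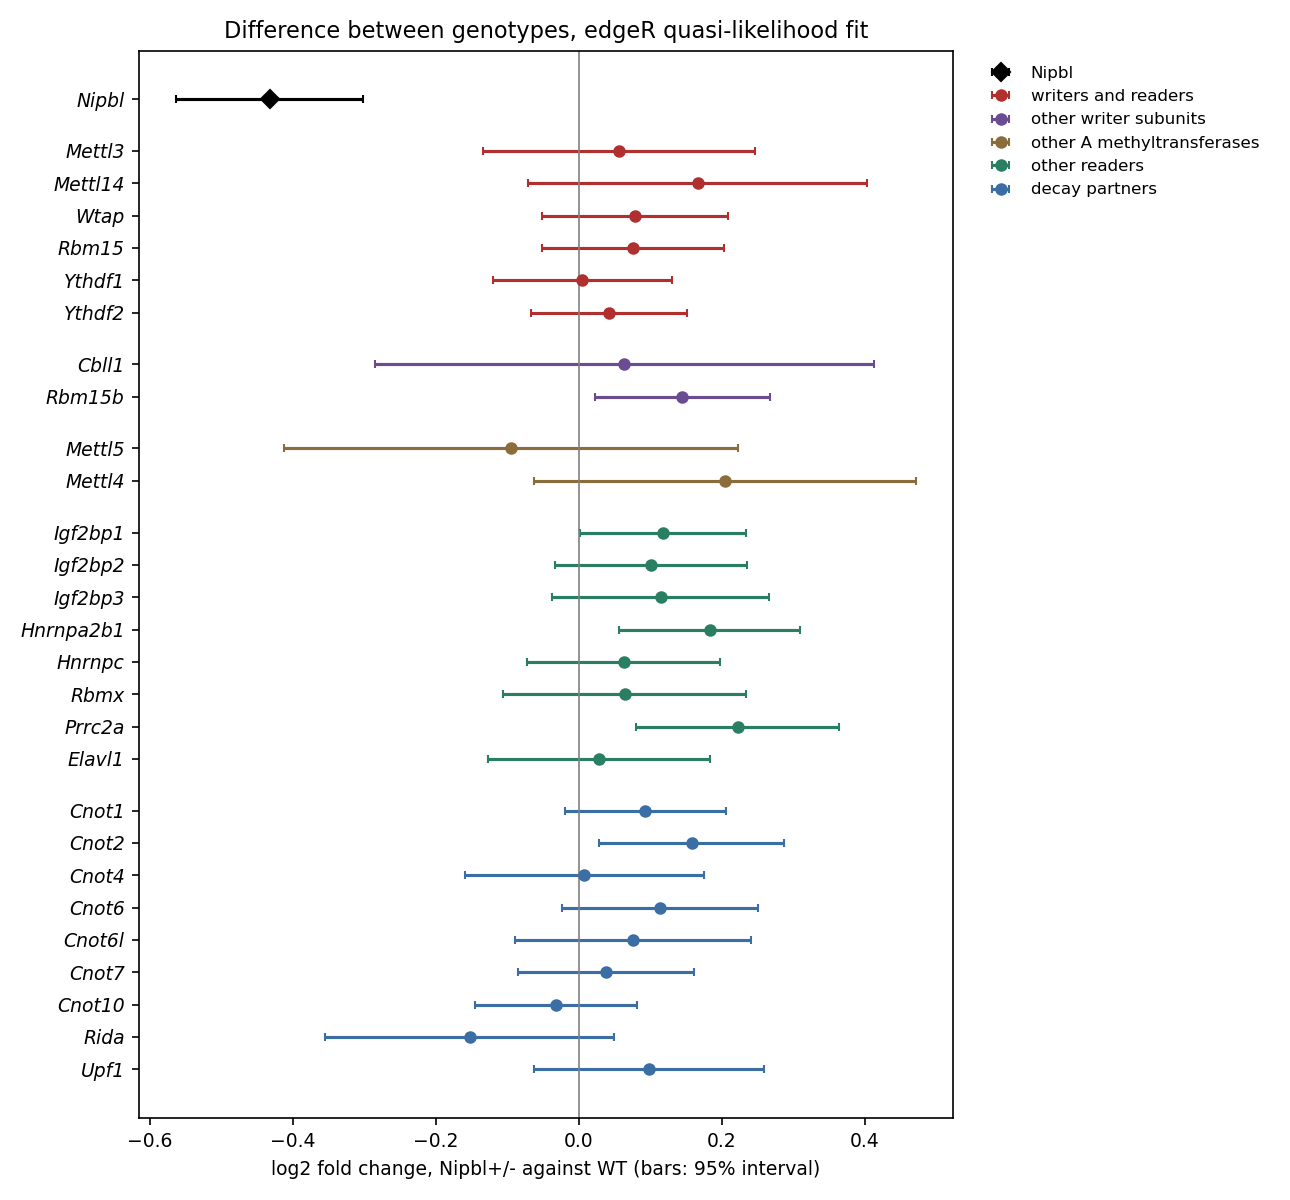
Log2 fold change of Nipbl+/- against WT (x axis) with its 95% interval for Nipbl, the 6 writer and reader genes, and the tested genes of 4 related lists, grouped by color. The intervals of the 6 genes all include 0 and all lie above that of Nipbl, and no interval other than that of Nipbl lies wholly below 0.

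The balance between partner genes was compared as a ratio of counts per length, which does not depend on how the libraries are scaled. The ratio of Mettl14 to Mettl3 was 0.430, 0.449 and 0.366 in WT and 0.436, 0.483 and 0.418 in Nipbl+/- cultures. The groups overlapped, and the log2 difference was 0.11 (SE 0.11, exact two-sided permutation test p = 0.5). It was 0.018 without WT replicate 3, 0.048 without Nipbl+/- replicate 2 and 0.17 without WT replicate 2. The ratio of Ythdf2 to Ythdf1 was 1.14, 1.12 and 1.08 in WT and 1.17, 1.14 and 1.11 in Nipbl+/- cultures. This difference of 0.04 on the log2 scale (SE 0.03, exact two-sided permutation test p = 0.5) was also no larger than the spread between replicates, and it was 0.014 without WT replicate 3, 0.016 without Nipbl+/- replicate 1 and 0.057 without WT replicate 1.

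Levels between genes can be set side by side only per length, for which the deposited RPKM values (reads per kilobase of gene and per unit of library size) were used. Over the 6 cultures the mean level was 23.8 ± 1.04 RPKM for Ythdf2, 21.1 ± 1.21 for Ythdf1, 20.4 ± 1.40 for Wtap, 11.2 ± 0.525 for Rbm15, 6.94 ± 0.620 for Mettl3 and 2.98 ± 0.333 for Mettl14 (SD, n = 6). Ythdf2, Ythdf1 and Wtap formed a close upper group whose ranges overlapped, although Ythdf2 was above Ythdf1 in 6 of 6 cultures. Ythdf1 exceeded Wtap by a factor of only 1.001 to 1.09 within a culture. Below them the ranges were separate, with Wtap 1.82 times Rbm15, Rbm15 1.62 times Mettl3 and Mettl3 2.33 times Mettl14. The core pair thus had the lowest RNA levels of the 6 genes on this scale, in both genotypes.

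This order depends on the gene length behind the RPKM. A length was worked out from the deposited counts and RPKM, taking the summed counts of each culture as its library size. A different library size would rescale it. This length was 4123 bases for Mettl3 and 5293 bases for Mettl14, while their longest transcripts in the consensus coding set (CCDS) of GENCODE M21 have 2025 and 2741 bases. With the CCDS transcripts in place of the authors' lengths, an alternative chosen after seeing the data, Wtap came first at 37.5 and Mettl3 moved above Rbm15, at 14.1 against 8.76 on the same scale. Mettl14 was lowest under both lengths, and Ythdf2 was above Ythdf1 under both.

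**Figure D3:**
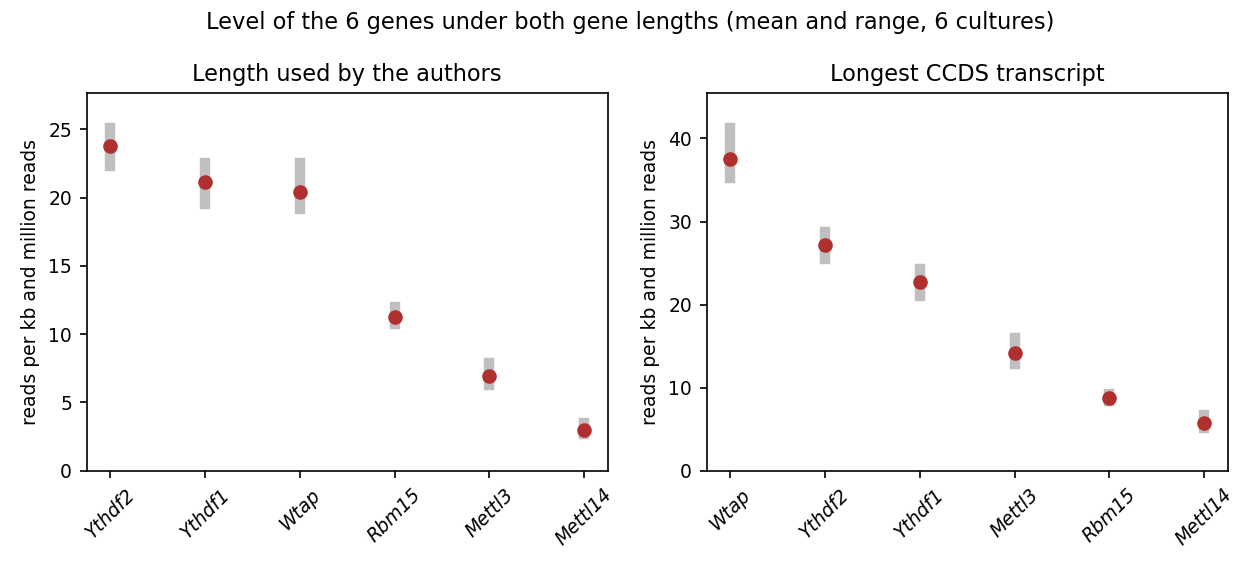
Level of each gene as reads per kilobase, scaled to library size (y axis from 0), with the mean as a point and the range of the 6 cultures as a grey bar, ordered from high to low. The left panel uses the lengths behind the deposited RPKM and the right panel the longest CCDS transcripts, where Wtap moves to the top and Mettl3 above Rbm15.

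The rest of the m6A pathway could be followed only in part. Of 86 other genes on the lists of the pathway and of related genes, 39 lie on the plus strand and are listed at 0, and 45 were tested. Among those at 0 are both demethylases, Fto and Alkbh5, the writer subunits Virma (listed as 1110037F02Rik) and Zc3h13, the methyltransferase genes Mettl16, Zcchc4 and Pcif1 with the partner gene Trmt112, and the readers Ythdf3, Ythdc1 and Ythdc2. No statement can be made on any of these. None of the 45 tested genes passed an edgeR adjusted p of 0.05. An unadjusted p under 0.05 was found for 5 of the 45, all higher in Nipbl+/- cultures, as were 8.98% of all tested genes. They are Rbm15b, Prrc2a, Hnrnpa2b1, Igf2bp1 and Cnot2.

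Of the other subunits of the writer complex, Rbm15b and Cbll1 were tested and neither passed. Rbm15b, a relative of Rbm15 with a like adaptor role, appears as 2 entries. The more counted one had 49.8, 48.7 and 53.5 CPM in WT and 56.5, 55.5 and 56.2 CPM in Nipbl+/- cultures. The genotypes did not overlap, with Nipbl+/- cultures higher, as held for 12% of all tested genes. The log2 fold change was 0.14 (SE 0.05, unadjusted p = 0.0253, edgeR adjusted p = 0.223). The second entry overlapped between genotypes, with a log2 fold change of 0.06. Cbll1, which encodes the HAKAI subunit, had a log2 fold change of 0.06 (95% interval -0.29 to 0.41). Of the other RNA adenosine methyltransferases, Mettl4 had a log2 fold change of 0.20 (edgeR adjusted p = 0.421), and Mettl5, which modifies 18S rRNA, one of -0.10 (edgeR adjusted p = 0.779).

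Among the other readers all 8 tested genes had a log2 fold change above 0, between 0.03 and 0.22, with a median of 0.11 beside -0.0057 over all tested genes, and 0 of 8 passed the adjusted threshold. An unadjusted p under 0.05 was reached by 3 of the 8, all higher in Nipbl+/- cultures, and in the same 3 the genotypes did not overlap, beside 8.98% and 12% of all tested genes in that direction. Prrc2a, proposed as a reader of m6A, had 229.9, 203 and 233 CPM in WT and 254, 258 and 263 CPM in Nipbl+/- cultures, a log2 fold change of 0.22 (SE 0.06, edgeR adjusted p = 0.114). Prrc2a passed in DESeq2 (adjusted p = 0.0409), the one call on these lists under any alternative. Hnrnpa2b1, a nuclear RNA-binding protein, had a log2 fold change of 0.18 (edgeR adjusted p = 0.141). For Igf2bp1, which stabilizes bound mRNAs, it was 0.12 (edgeR adjusted p = 0.288).

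YTHDF2 brings methylated mRNA to the CCR4-NOT deadenylase, and 9 of 13 genes of that complex and its decay partners were tested. None passed, and the median log2 fold change was 0.08. Cnot2 came closest, at 97.0, 96.2 and 99.2 CPM in WT and 103, 108 and 115 CPM in Nipbl+/- cultures (log2 fold change 0.16, SE 0.06, edgeR adjusted p = 0.208). Cnot6, a deadenylase subunit, had a log2 fold change of 0.11 and the scaffold Cnot1 one of 0.09. YTHDF1 has been linked to the translation factor eIF3, of which 9 of 13 subunit genes were tested and 0 passed, with a median of -0.0041. The smallest p-values there belonged to Eif3k at -0.10, Eif3i at -0.09 and Eif3e at -0.08 on the log2 scale.

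Other METTL family genes and pseudouridine synthase genes were listed because the study counts members of both among its RNA-processing genes. It reported lower expression of pseudouridylation genes in the lymphoblastoid line and in stem cells with Nipbl knockdown. The values below are from fibroblasts only. The METTL genes were listed by family name alone, whether or not their proteins act on RNA. Of 19 other METTL family genes 8 were tested, with a median log2 fold change of -0.02, and of 13 pseudouridine synthase genes 6 were tested, with a median of -0.04. None passed in either list. The smallest p-values were those of Mettl15 (log2 fold change 0.16), Mettl25 (-0.10) and Mettl8 (0.09) in the first list and of Pus7l (0.26), Pus7 (-0.06) and Trub2 (-0.04) in the second. Eif2ak2 encodes PKR, the kinase that the study followed as a sensor of unmodified RNA. The study measured phosphorylated PKR protein and reported more of it in Nipbl+/- MEFs, which RNA levels cannot show. Eif2ak2 was the only one of 4 eIF2alpha kinase genes with counts, since Eif2ak1, Eif2ak3 and Eif2ak4 lie on the plus strand. It had 110.6, 111 and 135 CPM in WT and 121, 122 and 113 CPM in Nipbl+/- cultures, with a log2 fold change of -0.0040 (95% interval -0.19 to 0.19, edgeR adjusted p = 0.988).

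For each of the 6 genes, the tested genes with the most similar profile over the 6 cultures were found by the root mean square (RMS) difference of log2 CPM centred on each gene's mean. Mettl3 was nearest to Fbxo11 and Mllt1 (RMS difference 0.025 and 0.027), Mettl14 to Efna4 and Sh3bp5 (0.039 and 0.042), Wtap to Snx5 and Api5 (0.016 each) and Rbm15 to Rabepk and Tmem183a (0.015 and 0.018). Ythdf1 was nearest to Med13 and Pisd (0.0099 and 0.011) and Ythdf2 to Ofd1 and Pafah1b1 (0.0059 and 0.0073). For a gene that varies little, such a match is common, and 707 tested genes lay within 0.05 of Ythdf2, while only 3 lay within 0.05 of Mettl14.

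**Figure D4:**
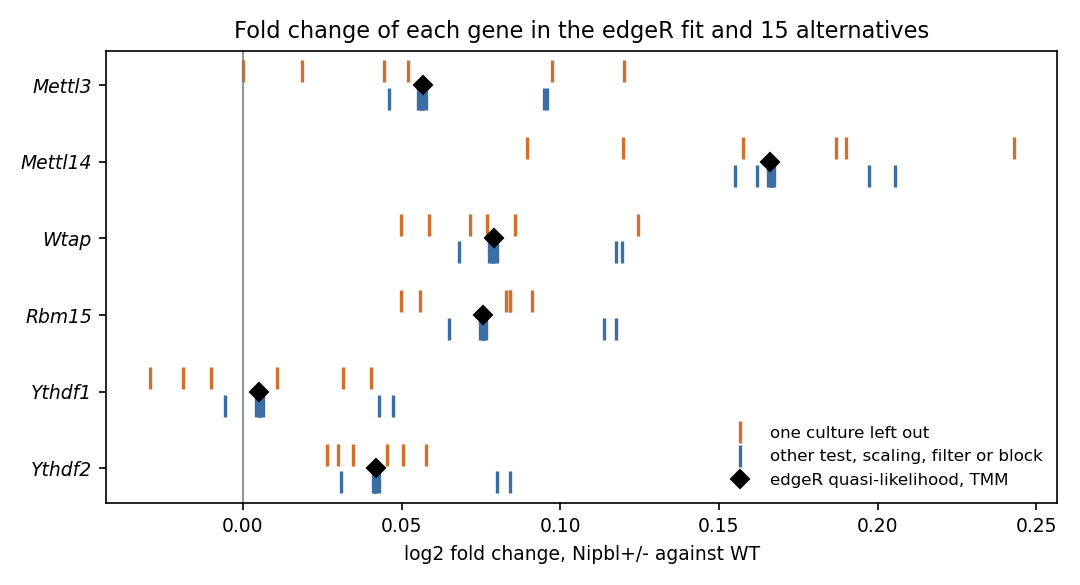
Log2 fold change of Nipbl+/- against WT (x axis) for each gene in the edgeR quasi-likelihood fit (black diamond), with each culture left out in turn (orange marks) and with other tests, scalings, filters or the replicate block (blue marks). Mettl14 ranges from 0.09 to 0.24 and Ythdf1 from -0.03 to 0.05, on both sides of 0.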

How the data were processed

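Total RNA of 6 MEF cultures (3 WT, 3 Nipbl+/-) was depleted of rRNA and sequenced. The authors aligned the reads with TopHat2 2.0.10 (named in the submitters' processing notes) to mm10 with an Ensembl gene annotation and deposited a raw count per gene. The counting tool is not given in the sources used here. The RPKM values deposited beside the counts scale them by gene length and library size. The gene length that count and RPKM imply differed by at most 0.714% between cultures over 7175 genes with at least 50 counts in each. It takes the summed counts of a culture as its library size, an assumption that was not tested.

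Genes were filtered with filterByExpr (minimum count 10), scaled by TMM and tested on counts by edgeR 4.0.16 (glmQLFit and glmQLFTest, R 4.3.3), with genotype alone in the model, Benjamini-Hochberg adjustment over all tested genes and a threshold of 0.05. Each SE was derived from the size of the log2 fold change and its F statistic. The 95% interval uses this SE and the degrees of freedom of the test. Permutation tests were exact and two-sided. Replicates of a genotype differed by more than counting noise (chi-square per degree of freedom 10.2 to 34.5), and p-values measure the spread between these cultures. The edgeR steps were run on simulated data with changes larger than those of the genes described here. That run therefore does not show whether differences as small as theirs would be found. DESeq2 1.42.0 and limma 3.58.1 (log2 of RPKM + 0.1) served as alternatives.

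The genes and lists were chosen with earlier results of these data known. Named are the 6 genes, Nipbl, all genes of pathway lists with 6 or fewer genes, Ythdf3, Ythdc1 and Ythdc2, in longer lists the called genes or else the 3 with the smallest p, and the 2 nearest profiles of each gene. Of the shorter marker lists, 2 endothelial, 1 epithelial, 1 muscle and 0 neural genes were tested, with 0 calls, and Krt8 is named after its values were seen. Coordinates are those of the files. Sequences are from GENCODE M21.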

Additional observations from a re-analysis of the deposited data

How the results depend on the processing

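None of the 6 genes was called under any of the 15 alternatives, and the log2 fold change ranged from 0.00011 to 0.12 for Mettl3, 0.089 to 0.24 for Mettl14, 0.050 to 0.12 for Wtap, 0.050 to 0.12 for Rbm15 and 0.027 to 0.084 for Ythdf2. That of Ythdf1 turned to -0.0057 with upper-quartile scaling, and lay between -0.029 and 0.040 with each culture left out. With a culture left out, the log2 difference in ratio lay between 0.018 and 0.17 for Mettl14 to Mettl3 and between 0.014 and 0.057 for Ythdf2 to Ythdf1. The number of genes called among all tested, 177 here, was 432 with edgeR's exact test, 449 with DESeq2, 325 without a filter on low counts, 30 with limma on log2(RPKM + 0.1) and between 3 (without Nipbl+/- replicate 1) and 268 (without WT replicate 2) with a culture left out. It was 6 without WT replicate 1, 11 without Nipbl+/- replicate 2, 65 without WT replicate 3 and 67 without Nipbl+/- replicate 3. The cause was not tested. With library size alone, 142 genes were higher and 70 lower, against 94 and 83. On the pathway lists DESeq2 called 1 gene and edgeR's quasi-likelihood test 0. Nipbl fell by 0.38 on the log2 scale with limma on log2(RPKM + 0.1) (adjusted p = 0.0647), and its value lay between -0.47 and -0.39 with a culture left out, where the edgeR adjusted p was above 0.05 without WT replicate 1, Nipbl+/- replicate 1 or Nipbl+/- replicate 2. With the replicate number as a block, 86 genes were called, Mettl3, Mettl14, Wtap, Rbm15, Ythdf1 and Ythdf2 again not among them. Deviations from the genotype means correlated at -0.062, -0.036 and -0.14 between cultures of the same number, so the numbers were not taken to pair the cultures. At the lowest count of each gene, counting error alone came to 5.77% for Mettl14 and 1.99% for Wtap, which limits how small a spread between cultures can be seen.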
